A study of Mus musculus with 15 samples.

Results

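Complement is a cascade of plasma and cell-surface proteins that marks targets for uptake by phagocytes and for lysis. The classical pathway starts when C1q on bound antibody switches on the proteases C1r and C1s, which cleave C4 and C2. The alternative pathway amplifies the reaction through factor B (gene Cfb), stabilized by properdin (gene Cfp), and both pathways meet at C3. Factor I (gene Cfi) inactivates C3b and C4b, and the C1 inhibitor (gene Serping1) blocks C1r and C1s. The liver makes most circulating complement, and macrophages and epithelial cells can make several of the components locally.

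Described here are 8 genes of this system, chosen by name with earlier results of these data known. They are C1ra, C2 and C4b of the classical pathway, Cfb and Cfp of the alternative pathway, C3, and the regulators Cfi and Serping1. Each was to be read from the probe set that carries its symbol alone and has the highest mean over the 15 arrays, a rule that gave 1 probe set for each of 18193 genes. Of the 8 genes, 6 had such a probe set. C3 had no probe set under its symbol in the annotation used and was not analysed here. The probe set annotated to C4b also carries C4a, its close copy, so its signal is given as C4a/C4b and enters none of the counts. C1ra has a close copy as well, C1rb, and a part of its signal may come from that gene.

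The tumors were grown from PDA30364, 1 mouse pancreatic ductal adenocarcinoma line, injected under the skin of C57BL/6-Ly5.1 mice aged 6 to 12 weeks (500000 cells) and collected on day 26. MEKi+CD40 mice (n = 4) received the MEK inhibitor GDC-0623 daily at 30 mg/kg and an agonist antibody to CD40 on treatment days 3, 5 and 7 and 1 day before collection. MEKi mice (n = 3) received GDC-0623 with control IgG, CD40 mice (n = 4) the antibody with vehicle, and Ctrl mice (n = 4) vehicle with control IgG. RNA of a whole tumor piece from each mouse was hybridized to 1 Affymetrix array, each with its own animal number, so p-values measure the spread between these single tumors. All values are log2 signals after robust multi-array average (RMA) normalization. In whole tumor RNA, more cells of a type and more RNA per cell cannot be told apart.

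The array medians lay between 5.16 and 5.24. The 6 epithelial genes of the tumor cells averaged 12.02 in MEKi+CD40, 12.31 in MEKi, 11.73 in CD40 and 11.66 in Ctrl tumors. Of them 1, 1 and 0 rose over Ctrl in the 3 treatments. Krt19 averaged 13.25 in MEKi+CD40, 13.42 in MEKi, 13.10 in CD40 and 13.13 in Ctrl tumors. Epcam averaged 10.15, 10.94 and 8.53 in the treated groups, against 8.12 in Ctrl tumors. Krt8 (12.885 against 12.955) and Krt18 (12.14 against 12.32) were lower in MEKi+CD40 than in Ctrl tumors, and the others were higher. Of 6 hepatocyte genes, Alb, Fgb and Ahsg stayed below every array median, Ttr had group means from 9.73 to 10.57, and Apob averaged 7.05 in MEKi+CD40, 5.59 in MEKi and 6.90 in CD40, against 6.17 in Ctrl tumors. Over Ctrl, 2 of the 6 hepatocyte genes rose in MEKi+CD40 tumors, 1 rose and 1 fell in MEKi tumors, and 1 rose in CD40 tumors. The animal numbers in the sample titles fell into a series under 10000, which held all 4 MEKi+CD40, 2 CD40 and 3 Ctrl arrays, and a series from 10000 on, which held all 3 MEKi, 2 CD40 and 1 Ctrl arrays. MEKi+CD40 and MEKi tumors shared no series, so series and treatment cannot be told apart from those arrays alone. Skeletal muscle markers were uneven across groups, with list means of 8.72 to 10.49 in MEKi+CD40, 8.34 to 11.33 in MEKi, 4.42 to 6.99 in CD40 and 4.29 to 7.65 in Ctrl arrays, and 6, 1 and 0 of its 7 genes rose over Ctrl in MEKi+CD40, MEKi and CD40 tumors. Of 6 skin keratinocyte genes, 3 rose in MEKi tumors and none in the other treatments.

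All 6 measured complement genes rose in MEKi+CD40 tumors compared with Ctrl tumors. Cfi and Serping1, the regulators, rose 4.49-fold and 4.11-fold, C1ra 2.85-fold, Cfb 2.40-fold, C2 2.08-fold and Cfp 1.73-fold. Across all genes, 10.3% rose and 8.72% fell at the same threshold, a Benjamini-Hochberg adjusted p under 0.05 in limma's moderated test. The median log2 fold change of the 6 genes was 1.39, compared with -0.04 over all genes. Because earlier results were known when the genes were chosen, such shares and medians are a description and not a test. MEKi alone raised 4 of the 6 genes, C1ra, Cfb, Cfi and Serping1 (10.7% of all genes rose and 10.4% fell, median 1.13 for the 6 and -0.04 for all). CD40 Ab alone raised 1 of the 6, Cfp, where 1.01% of all genes rose and 0.0495% fell. The median of the 6 genes was 0.79 there. At an unadjusted p under 0.05, 5 of the 6 genes were higher in CD40 than in Ctrl tumors, where 11.5% of all genes passed in either direction.

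**Figure D1:**
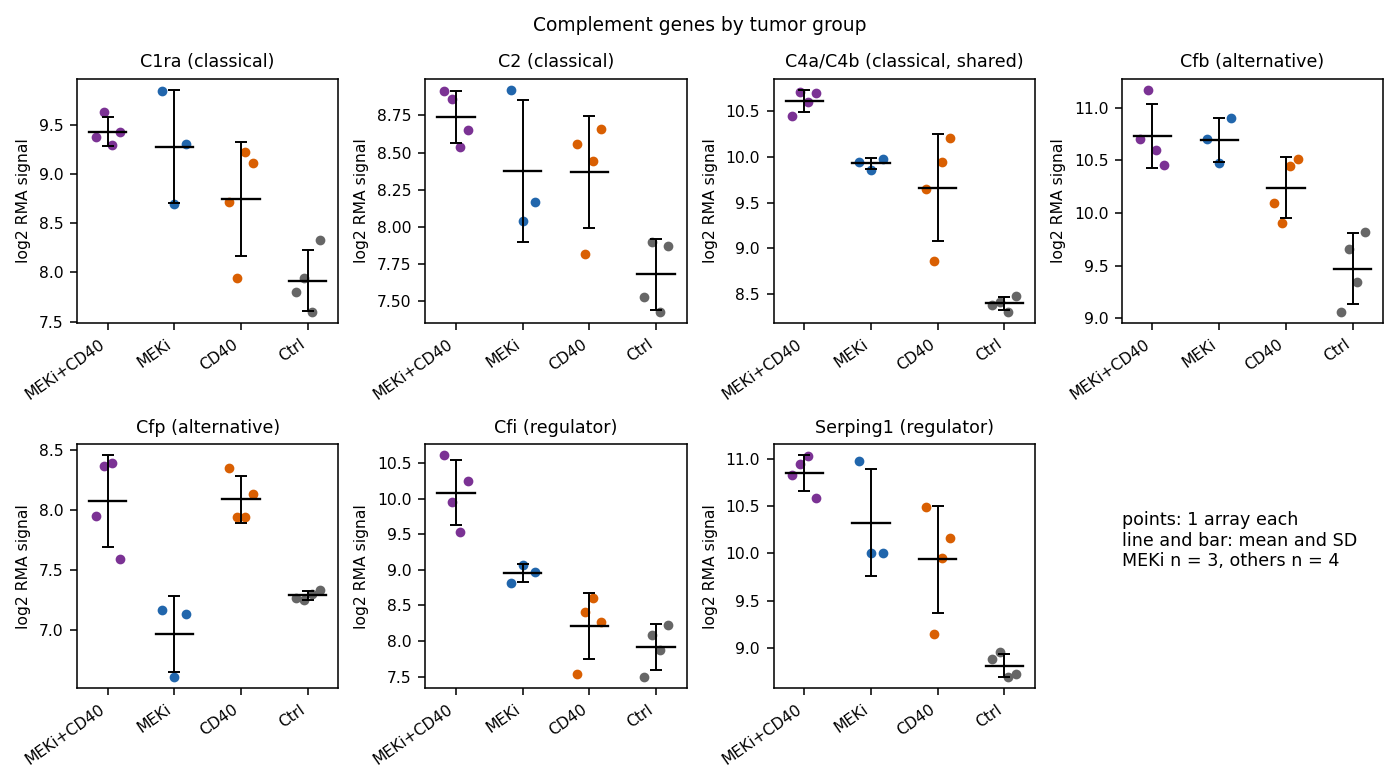
Log2 RMA signal (y axis) of each measured complement gene and of the C4a/C4b probe set in the 4 tumor groups (x axis), with 1 point per array and the group mean and SD. The MEKi+CD40 arrays lie above all Ctrl arrays in every panel, and the MEKi arrays lie below all Ctrl arrays for Cfp. How many of all genes separate in this way was not counted.

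In the classical pathway, C1ra encodes the protease that activates C1s. Its signal was 9.37, 9.63, 9.29 and 9.43 in MEKi+CD40 tumors, 9.84, 8.69 and 9.30 in MEKi tumors, 8.72, 7.94, 9.22 and 9.11 in CD40 tumors, and 7.80, 7.94, 7.60 and 8.33 in Ctrl tumors. Every MEKi+CD40 and MEKi array was above the highest Ctrl array, and CD40 replicate 2 was level with a Ctrl array. How many of all genes separate groups of arrays in this way was not counted, for this gene or for those that follow. The log2 fold change over Ctrl was 1.51 ± 0.14 (SE, limma adjusted p = 0.000321) in MEKi+CD40, 1.36 ± 0.27 (adjusted p = 0.0120) in MEKi and 0.83 ± 0.26 (adjusted p = 0.273) in CD40 tumors.

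C2 encodes the protease subunit of the classical C3 convertase. Its arrays read 8.91, 8.86, 8.54 and 8.65 in MEKi+CD40, 8.92, 8.04 and 8.17 in MEKi, 8.56, 7.82, 8.44 and 8.66 in CD40, and 7.53, 7.90, 7.43 and 7.87 in Ctrl tumors. The MEKi+CD40 and MEKi arrays did not overlap with the Ctrl arrays, and CD40 replicate 2 again fell among them. C2 rose by 1.06 ± 0.13 in MEKi+CD40 tumors (limma adjusted p = 0.000851), while 0.69 ± 0.22 in MEKi (adjusted p = 0.0682) and 0.69 ± 0.18 in CD40 tumors (adjusted p = 0.169) did not pass the test. The other 2 probe sets of C2 gave the same calls, with folds of 2.41 and 2.37 in MEKi+CD40 over Ctrl tumors. The probe set read here and the one with 2.37 are of a type that can match several transcripts. On the one with 2.41, the MEKi and Ctrl arrays overlapped (0.84 ± 0.27, adjusted p = 0.0700).

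C4 is the component that activated C1s cleaves. The C4a/C4b probe set read 10.45, 10.71, 10.60 and 10.70 in MEKi+CD40, 9.95, 9.86 and 9.98 in MEKi, 9.65, 8.86, 9.94 and 10.21 in CD40, and 8.38, 8.41, 8.30 and 8.48 in Ctrl tumors. All treated arrays were above all Ctrl arrays, and all MEKi+CD40 arrays were above all MEKi and all CD40 arrays. The log2 fold change over Ctrl was 2.22 ± 0.07 in MEKi+CD40 (limma adjusted p = 4.72e-06), 1.54 ± 0.07 in MEKi (adjusted p = 5.55e-05) and 1.27 ± 0.24 in CD40 tumors (adjusted p = 0.0484). It was also 0.69 ± 0.09 higher in MEKi+CD40 than in MEKi tumors (adjusted p = 0.00797), a call lost with all 15 arrays in 1 fit (0.0661), the replicate block (0.118) and the muscle and skin covariates (0.213). The CD40 call was lost without any 1 of the 8 arrays except CD40 replicate 2, with adjusted p from 0.0896 to 0.157.

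In the alternative pathway, Cfb encodes factor B, the protease of the alternative C3 convertase. Its signal was 10.70, 11.17, 10.60 and 10.46 in MEKi+CD40, 10.70, 10.48 and 10.90 in MEKi, 10.10, 9.91, 10.45 and 10.51 in CD40, and 9.06, 9.66, 9.34 and 9.82 in Ctrl tumors. Every treated array was above the Ctrl arrays, while MEKi+CD40 and MEKi arrays overlapped. Cfb rose by 1.26 ± 0.19 in MEKi+CD40 (limma adjusted p = 0.00246) and by 1.22 ± 0.19 in MEKi tumors (adjusted p = 0.00417), and the difference of 0.77 ± 0.18 in CD40 tumors did not pass (adjusted p = 0.118).

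Cfp encodes properdin, which stabilizes the alternative convertase and is made mainly by myeloid cells. It read 7.95, 8.37, 8.39 and 7.59 in MEKi+CD40, 7.16, 6.60 and 7.13 in MEKi, 8.35, 7.94, 7.94 and 8.13 in CD40, and 7.26, 7.25, 7.30 and 7.33 in Ctrl tumors. Both groups given CD40 Ab lay above all Ctrl arrays, whereas all 3 MEKi arrays lay below them. Cfp rose by 0.79 ± 0.16 in MEKi+CD40 (limma adjusted p = 0.0107) and by 0.81 ± 0.09 in CD40 tumors (adjusted p = 0.0186), and was -0.32 ± 0.13 in MEKi tumors (adjusted p = 0.150).

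The CD40 call of Cfp was close to the threshold: it was lost without Ctrl replicate 1, 2 or 3 or CD40 replicate 4, with adjusted p from 0.0612 to 0.0799. A second, dimmer probe set of Cfp, with a mean of 6.78 over all arrays, gave folds of 1.15 in MEKi+CD40 (adjusted p = 0.573) and 1.00 in CD40 tumors (adjusted p = 1) over Ctrl tumors. The 2 probe sets of Cfp therefore disagree on the rise.

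The regulator Cfi encodes the protease that inactivates C3b and C4b. It read 10.61, 9.95, 9.53 and 10.25 in MEKi+CD40, 8.82, 9.07 and 8.97 in MEKi, 7.54, 8.41, 8.61 and 8.27 in CD40, and 7.49, 8.08, 7.87 and 8.23 in Ctrl tumors. The MEKi+CD40 arrays were above all others, the MEKi arrays came next without overlap, and the CD40 and Ctrl arrays overlapped. The log2 fold change over Ctrl was 2.17 ± 0.23 in MEKi+CD40 (limma adjusted p = 0.000483), 1.04 ± 0.17 in MEKi (adjusted p = 0.00540) and 0.29 ± 0.23 in CD40 tumors (adjusted p = 0.744).

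Serping1 encodes the C1 inhibitor. Its signal was 10.83, 10.95, 11.03 and 10.59 in MEKi+CD40, 10.98, 10.00 and 10.00 in MEKi, 10.49, 9.15, 9.95 and 10.16 in CD40, and 8.88, 8.95, 8.69 and 8.72 in Ctrl tumors. All 11 treated arrays were above the 4 Ctrl arrays. Serping1 rose by 2.04 ± 0.10 in MEKi+CD40 (limma adjusted p = 1.70e-05) and by 1.52 ± 0.23 in MEKi tumors (adjusted p = 0.00412), and the 1.13 ± 0.23 in CD40 tumors missed the threshold (adjusted p = 0.0768).

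**Figure D2:**
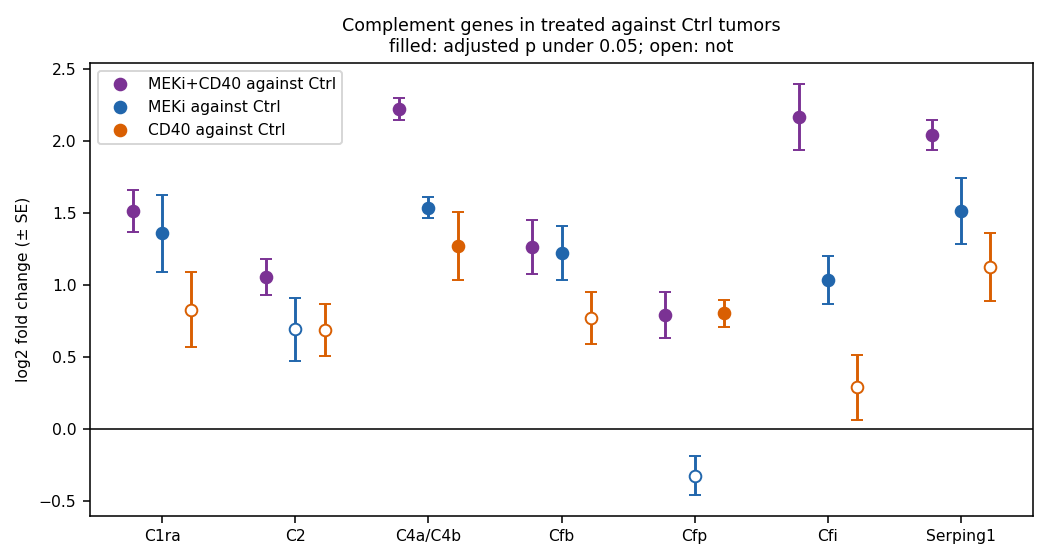
Log2 fold change (y axis, ± SE of limma's fit) over Ctrl tumors for the 6 measured complement genes and the C4a/C4b probe set (x axis), with filled points for an adjusted p under 0.05. Cfi has the widest spread among treatments, between 0.29 in CD40 and 2.17 in MEKi+CD40 tumors, and Cfp is the 1 gene below 0, at -0.32 in MEKi tumors.

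Single libraries decided the CD40 count. Without CD40 replicate 2, which was the lowest CD40 array for C1ra, C2, Serping1 and C4a/C4b, 4 of the 6 genes passed in CD40 against Ctrl tumors: C1ra, C2 and Serping1 joined Cfp, at log2 fold changes of 1.10, 0.87 and 1.39 (1.00% of all genes rose and 0.0330% fell). Without Ctrl replicate 1, 2 or 3 or CD40 replicate 4, no gene of the array passed, complement or other. Within the series under 10000 (2 CD40 and 3 Ctrl arrays) none of the 6 genes passed, where 0.0385% of all genes rose, and within the series from 10000 (2 CD40 arrays and 1 Ctrl array) no gene of the array passed. All 6 genes were higher in CD40 tumors in both series, and the share of all genes that were was not counted.

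For MEKi+CD40 against Ctrl, all 6 genes also passed within the series under 10000 (4 against 3 arrays). The share of all genes that passed in that fit is not given here. For MEKi against Ctrl, 2 of the 6 genes passed with the series as a covariate, Cfb at 0.87 and Serping1 at 1.45, where 7.96% of all genes rose and 7.70% fell. C1ra stood at 0.82 there (adjusted p = 0.0781) and Cfi at 0.70 (adjusted p = 0.156). In the series from 10000, with 3 MEKi arrays and 1 Ctrl array, no gene of the array passed, and Serping1 was 1.61 and Cfb 0.87 higher in MEKi tumors. With the skeletal muscle and skin marker levels as covariates in a fit of all 15 arrays, 2 of the 6 genes passed in MEKi+CD40 against Ctrl tumors, Cfi at 2.40 (adjusted p = 0.00614) and Serping1 at 1.51 (adjusted p = 0.0376), while C1ra stood at 0.93, C2 at 0.67, Cfb at 1.10 and Cfp at 0.48. In that fit 1.53% of all genes rose and 0.945% fell. In MEKi against Ctrl tumors Serping1 was the 1 of 6 genes that passed there, at 1.36 (adjusted p = 0.0349), where 5.39% of all genes rose and 4.90% fell. Every array given MEKi had a muscle level of at least 8.34, and every other array one of at most 7.65. The covariate fit therefore cannot fully tell muscle content and MEKi apart.

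Of the 6 genes, 2 were higher in MEKi+CD40 than in MEKi tumors, Cfp and Cfi (1.38% of all genes were higher and 2.65% lower). These groups shared no animal number series, so antibody and series cannot be told apart between them. Cfp was 2.16-fold higher in MEKi+CD40 than in MEKi tumors (log2 1.11 ± 0.22, limma adjusted p = 0.0441) and Cfi 2.19-fold higher (1.13 ± 0.23, adjusted p = 0.0441). Neither gene's arrays overlapped between the groups, but the second probe set of Cfp did, at 1.48-fold (adjusted p = 0.157). C1ra, C2, Cfb and Serping1 differed by 0.15 ± 0.24, 0.36 ± 0.21, 0.04 ± 0.18 and 0.52 ± 0.24, with adjusted p from 0.316 to 0.944. Both calls sat close to the threshold, and none was left without MEKi replicate 2 or 3 or without MEKi+CD40 replicate 1 or 2. Without MEKi+CD40 replicate 3 or 4, 1 call was left. Without MEKi replicate 1, Cfi was lost (adjusted p = 0.0702), while C2 (log2 0.64, adjusted p = 0.0344) and Serping1 (0.85, adjusted p = 0.0142) joined Cfp.

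Adding MEKi to CD40 Ab raised Cfi alone among the 6 genes, 3.67-fold (log2 1.88 ± 0.27, limma adjusted p = 0.00736). Here 3.69% of all genes rose and 2.52% fell. Serping1 (0.91 ± 0.25, adjusted p = 0.0699) and C1ra (0.68 ± 0.24, adjusted p = 0.145) were higher in every MEKi+CD40 array than in every CD40 array without passing. Cfp differed by -0.02 ± 0.18 (adjusted p = 0.971). Without CD40 replicate 1, Serping1 also passed, at 1.10 (adjusted p = 0.0367). With the series as a covariate C1ra passed at 1.04 (adjusted p = 0.0239) and Cfb at 0.73 (adjusted p = 0.0291), and within the series under 10000 C1ra was at 1.10 (adjusted p = 0.0481). With the muscle and skin covariates C1ra was at -0.10, and Cfi at 2.21 missed the threshold (adjusted p = 0.0510).

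Between the single agents, Cfp was lower in MEKi than in CD40 tumors (log2 difference -1.13 ± 0.16, fold change 0.458, limma adjusted p = 0.00654), with no overlap of arrays. The second probe set of Cfp overlapped and gave -0.36 (adjusted p = 0.160). It was the 1 of 6 genes called, where 6.89% of all genes were higher and 5.75% lower in MEKi tumors. Within the series from 10000 the log2 difference was -1.07 (3 against 2 arrays, adjusted p = 0.0626). Every MEKi array was above the CD40 arrays for Cfi, but the difference of 0.75 ± 0.23 did not pass (adjusted p = 0.0867). C2 differed by 0.01 ± 0.26.

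The interaction term, which is the effect of CD40 Ab on top of MEKi minus its effect without MEKi, called none of the 6 genes in limma (2.00% of all genes were above 0 and 2.56% below it). At an unadjusted p under 0.05, which 20.4% of all genes passed, there were 2, Cfi at 0.84 ± 0.35 (adjusted p = 0.231) and Cfb at -0.73 ± 0.28 (adjusted p = 0.177). The median was -0.46 for the 6 genes and near 0 for all genes. Among the others, Cfp was at 0.31 ± 0.25 and C1ra at -0.68 ± 0.39. The term rests on MEKi+CD40 and MEKi arrays that shared no animal number series. With the series as a covariate, Cfb was at -0.14 ± 0.30 (limma adjusted p = 0.906) and C1ra at 0.21. Cfi was at 1.40 ± 0.44 in that fit (adjusted p = 0.221).

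For 5 of the 6 genes the group means ran in the order MEKi+CD40, MEKi, CD40, Ctrl, with MEKi and CD40 level for C2 (8.38 and 8.37). For Cfp the order was CD40, MEKi+CD40, Ctrl, MEKi. In C1ra, C2, Cfb and Serping1 no difference between neighbors in this order passed the test. In Cfi MEKi+CD40 differed from MEKi, while MEKi against CD40 and CD40 against Ctrl did not pass. In Cfp MEKi+CD40 differed from its neighbor Ctrl, and the other neighbors did not pass.

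Classical and alternative pathway genes were set side by side as the mean of C1ra and C2 and the mean of Cfb and Cfp, each relative to its Ctrl mean on the log2 scale and with no test. In MEKi+CD40 tumors the classical pair stood at 1.29 ± 0.14 and the alternative pair at 1.03 ± 0.31 (SD, n = 4). In MEKi tumors they stood at 1.03 ± 0.51 and 0.45 ± 0.25 (n = 3), and in CD40 tumors at 0.76 ± 0.46 and 0.79 ± 0.17 (n = 4). All 3 MEKi arrays had the classical pair higher, by 1.03, 0.40 and 0.30. The 4 CD40 arrays differed by -0.01, -0.47, 0.21 and 0.14. The pair of alternative genes was itself split in MEKi tumors, where Cfb was above and Cfp below every Ctrl array.

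**Figure D3:**
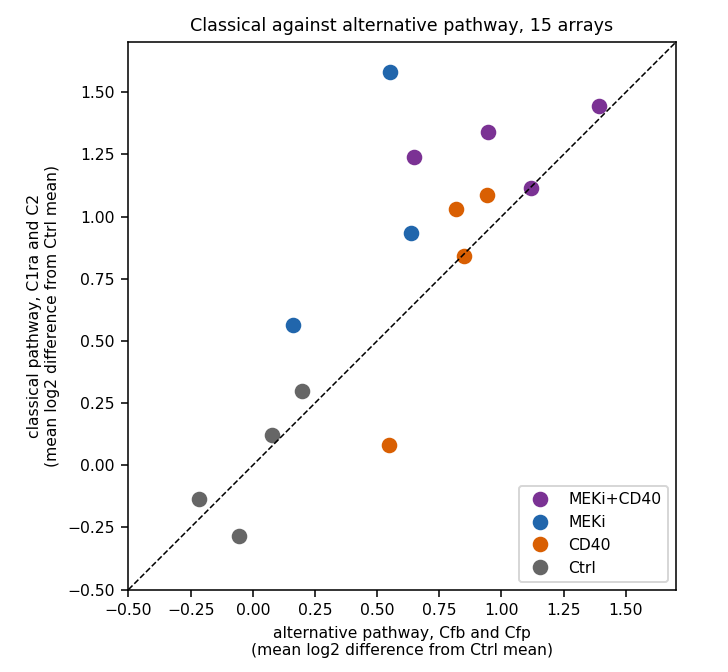
Mean log2 difference from the Ctrl mean of the classical pair C1ra and C2 (y axis) against that of the alternative pair Cfb and Cfp (x axis), 1 point per array, with the line of equal values. The MEKi arrays lie above the line by 0.30 to 1.03, and the CD40 arrays lie on both sides of it.

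Over the 15 arrays, with each gene centred on its own mean, C1ra and Cfb were the closest pair of complement genes (root mean square difference of 0.29 log2 units), and Cfp and Cfi the farthest (0.97). C2 and Cfb, which encode related proteases and are neighbors on chromosome 17 with no protein-coding gene between them in RefSeq, differed by 0.31. These distances describe arrays that share groups and were not tested.

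Among all genes outside the complement lists, those closest to C1ra were Cd74, the invariant chain of MHC class II (0.20), BC023105 (0.25) and H2-Aa, an MHC class II chain (0.25). Closest to C2 were Mndal (0.16), Casp12 (0.18) and Ctss, the lysosomal protease cathepsin S (0.18). Cfb was closest to Tapbpl, a tapasin-like protein of MHC class I loading (0.16), Psmb10, an immunoproteasome subunit (0.17), and Sting1, a sensor adaptor of cytosolic DNA responses (0.19). Those nearest to Cfp were Fcgr4, an Fc receptor of myeloid cells (0.22), C130026I21Rik (0.23) and Sod3, an extracellular superoxide dismutase (0.27).

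Among the 2 regulators, the genes nearest to Cfi were Lemd1 (0.32), Tinag (0.33) and Prom1, which encodes the membrane glycoprotein CD133 (0.34). For Serping1 they were Hivep3 (0.32), Ciita, the transactivator of MHC class II genes (0.35), and Smpdl3a (0.35). The median distance over all genes was 0.52 for C2, 0.55 for Cfp, 0.61 for Cfb, 0.73 for C1ra, 0.87 for Serping1 and 0.95 for Cfi. Such distances grow with the spread of the gene itself, so they are not compared between the 6 genes. Its SD over the 15 arrays was 0.50, 0.55, 0.59, 0.73, 0.87 and 0.96 in the same order.

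Of the 6 measured genes, 2 had a RefSeq promoter window in the tables used, C1ra and Cfp. Both are printed because no other measured gene had a window. The 250 bases before each start (GRCm38.p6) are chr6:124512371-124512620 on the plus strand for C1ra and chrX:20931556-20931805 on the minus strand for Cfp, 5′ to 3′ on the strand of the gene, all in lower case because no motif searched was found.
C1ra: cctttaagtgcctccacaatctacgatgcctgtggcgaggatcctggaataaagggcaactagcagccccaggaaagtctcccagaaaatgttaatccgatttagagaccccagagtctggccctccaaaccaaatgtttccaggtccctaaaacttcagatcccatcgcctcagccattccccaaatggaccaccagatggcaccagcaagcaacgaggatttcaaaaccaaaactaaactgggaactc
Cfp: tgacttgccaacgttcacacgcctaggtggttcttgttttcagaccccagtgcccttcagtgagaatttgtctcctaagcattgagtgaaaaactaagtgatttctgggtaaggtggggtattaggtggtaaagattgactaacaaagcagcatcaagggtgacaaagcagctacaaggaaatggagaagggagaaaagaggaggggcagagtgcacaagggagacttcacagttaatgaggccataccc
The motifs searched on both strands were the STAT site GAS (TTCNNNGAA), the interferon element ISRE, the C/EBP site (TTGCNNAA) and the kappa B site. They are held by 7.02%, 2.98%, 9.56% and 3.90% of 32851 promoter windows of this length, and their absence says only that these letters are not in these 2 windows.

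Other complement genes were counted by role. Of 49 further genes listed by role, 40 had a probe set of their own, and the call rule was that of the 6 genes. In MEKi+CD40 against Ctrl tumors 10 of the 40 rose and 1 fell (10.3% and 8.72% of all genes), with a median log2 fold change of 0.09, and none of the 40 passed with the muscle and skin covariates. In MEKi against Ctrl tumors 4 rose and 2 fell (10.7% and 10.4% of all genes), with a median of 0.07. In CD40 against Ctrl tumors 4 rose and none fell (1.01% and 0.0495% of all genes), with a median of 0.05. None of the 6 measured genes of the terminal pathway passed in any of these 3 comparisons.

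All 3 genes of C1q, the recognition molecule of the classical pathway that macrophages make, rose in both groups given CD40 Ab. C1qc rose by 0.92 ± 0.13 in MEKi+CD40 (limma adjusted p = 0.00170) and by 0.67 ± 0.09 in CD40 tumors (adjusted p = 0.0225), and C1qb by 0.91 ± 0.14 in MEKi+CD40 and 0.63 ± 0.08 in CD40 tumors. With the muscle and skin covariates the MEKi+CD40 values were 0.27 for C1qc, 0.19 for C1qb and 0.18 for C1qa, and none passed. In MEKi tumors C1qc differed by 0.22 ± 0.25 (adjusted p = 0.603), with arrays of 10.08, 8.83 and 9.30 on both sides of the Ctrl arrays, 9.18, 9.13, 9.12 and 9.31. Itgb2, the beta chain of the complement receptors CR3 and CR4, followed the same pattern, at 1.37 ± 0.15 in MEKi+CD40 and 0.76 ± 0.11 in CD40 tumors. The call of C1qc in CD40 tumors was lost without Ctrl replicate 1, 2 or 3 or CD40 replicate 3 or 4, with adjusted p of at least 0.0506.

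Cd59a, which encodes an inhibitor of the membrane attack complex, rose in both groups given MEKi, by 1.08 ± 0.22 in MEKi+CD40 (limma adjusted p = 0.0105) and 1.09 ± 0.16 in MEKi tumors (adjusted p = 0.00408), and stood at 0.03 ± 0.13 in CD40 tumors. Colec12, a collectin of the lectin group, rose by 0.59 ± 0.15 in MEKi+CD40 (adjusted p = 0.0272) and by 1.67 ± 0.21 in MEKi tumors (adjusted p = 0.00177). Its MEKi+CD40 call was lost without Ctrl replicate 1, 3 or 4 or MEKi+CD40 replicate 1 (adjusted p from 0.0543 to 0.0775), with all 15 arrays in 1 fit (0.185) and with the series as a covariate (0.215). These 5 genes were named by the rule for the wider list; those that follow were chosen after their values were seen.

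C1s1, the protease that C1r activates, was 3.32-fold higher in MEKi+CD40 than in Ctrl tumors (limma adjusted p = 0.000363), close to C1ra in size. C3ar1, the receptor of C3a, and Itgax, the alpha chain of CR4, rose by 0.77 ± 0.14 and 0.91 ± 0.16 in MEKi+CD40 tumors. C4bp, a soluble inhibitor of the classical convertase, fell there by 0.49 at a low level, 4.36 in MEKi+CD40 against 4.85 in Ctrl tumors. Its call was lost with all 15 arrays in 1 fit (limma adjusted p = 0.0542) and with the series as a covariate (0.0548). With the muscle and skin covariates C4bp was at -0.16 (0.792). The C3ar1 call was also lost with the series as a covariate (0.0571).

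Masp1, a protease of the lectin pathway, had the largest change of the wider list. It read 8.40, 9.40 and 9.50 in MEKi tumors, compared with 6.27, 6.34, 6.28 and 6.67 in Ctrl tumors, a log2 fold change of 2.71 ± 0.25 (limma adjusted p = 0.000536). In MEKi+CD40 tumors it was between 6.20 and 6.86 and in CD40 tumors between 5.41 and 6.43, and the interaction was -1.93 ± 0.38 (adjusted p = 0.0150). Of its 5 probe sets, 4 rose in MEKi tumors. The 2 brightest, both of a type that can match several transcripts, gave 3.31 and 2.71, and the fifth gave 0.28 ± 0.13 (adjusted p = 0.182). Cd55, a membrane inhibitor of the C3 convertases, also rose in MEKi tumors (1.72 ± 0.14, adjusted p = 0.000276) at a low signal, 5.26 in MEKi against 3.54 in Ctrl tumors, and all 3 of its probe sets rose. Fcna, a ficolin of the lectin pathway, fell by 1.10 in MEKi tumors (adjusted p = 0.0280), which did not hold without MEKi replicate 2 or 3 or Ctrl replicate 1 (adjusted p from 0.0676 to 0.0729). With the series as a covariate Fcna was at -0.65 (adjusted p = 0.272), and the muscle and skin covariates also ended the call (adjusted p = 0.185).

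**Figure D4:**
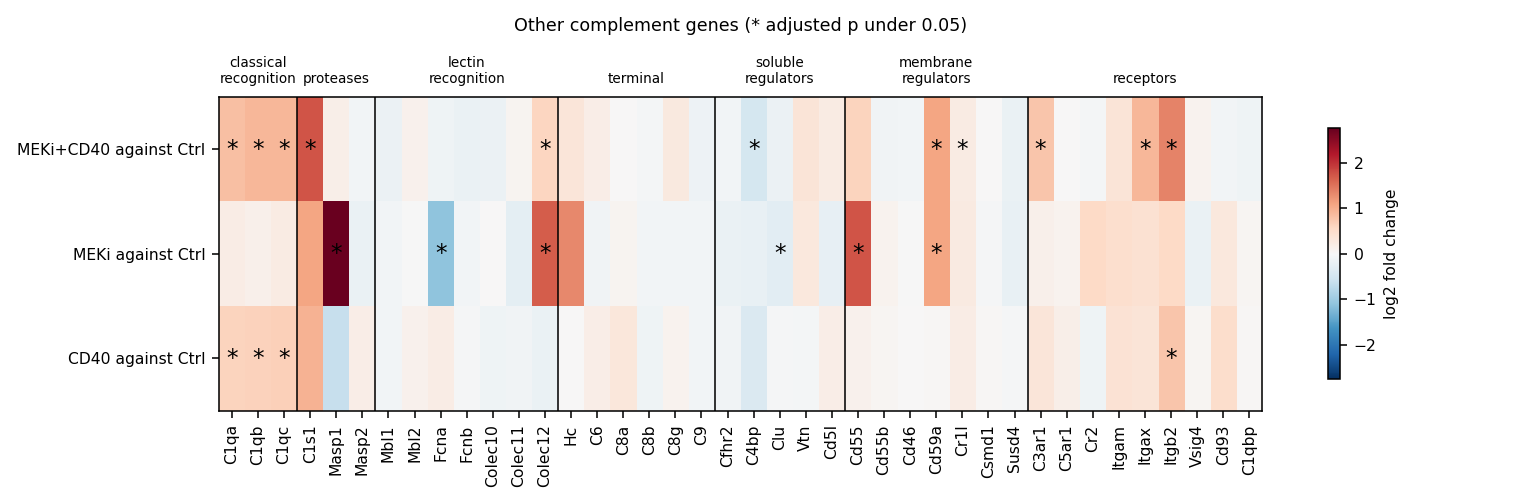
Log2 fold change (color) of the 40 other complement genes measured (x axis, by role) in the 3 comparisons against Ctrl tumors (rows), with stars for an adjusted p under 0.05. C1q genes are starred in the rows with CD40 Ab, and Masp1, at 2.71, in the MEKi row.

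Marker lists of other cells also differed between the groups, not all of them in the order of the complement genes. The macrophage list (8 of 8 genes measured) averaged 9.88 in MEKi+CD40 (9.49 to 10.26), 9.37 in MEKi (8.73 to 10.09), 9.55 in CD40 (9.38 to 9.71) and 8.96 in Ctrl arrays (8.83 to 9.12), and 7, 0 and 4 of its genes rose over Ctrl in these 3 treatments. Neutrophil genes (5 of 7 measured, without Ly6g and Retnlg) averaged 7.79, 8.28 and 7.22 in MEKi+CD40, MEKi and CD40 tumors, against 6.60 in Ctrl tumors. Of them 5, 4 and 0 rose over Ctrl. By flow cytometry, a count of cells and not of RNA, the paper reported fewer granulocytic myeloid cells in PDA30364 tumors under MEKi. The difference between these 2 measures was not tested. Fibroblast genes (7 of 7) averaged 10.05, 11.48 and 9.18, against 9.27 in Ctrl tumors, and all 7 rose in MEKi tumors. T cell genes (5 of 6) averaged 7.07, 6.47 and 6.33, against 5.51 in Ctrl tumors, and 5, 0 and 1 of them rose. Endothelial genes (5 of 5) averaged 6.24, 6.50 and 6.37, against 6.04 in Ctrl tumors, and 1, 0 and 0 of them rose. Adipocyte genes (4 of 5) averaged 6.56, 5.14 and 6.53, against 5.63 in Ctrl tumors, an order like that of Cfp in which both CD40 Ab groups were highest, and none of the 4 passed against Ctrl.

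The interferon gamma response genes (6 of 7 measured) averaged 11.02 in MEKi+CD40, 10.76 in MEKi and 10.52 in CD40 tumors, against 9.53 in Ctrl tumors, and 6, 6 and 1 of them rose. Acute phase genes (6 of 6) averaged 8.86, 8.66 and 8.28, against 7.43 in Ctrl tumors, and 4, 3 and none of them rose. The part of these cells and programs in the complement values was not tested.

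**Figure D5:**
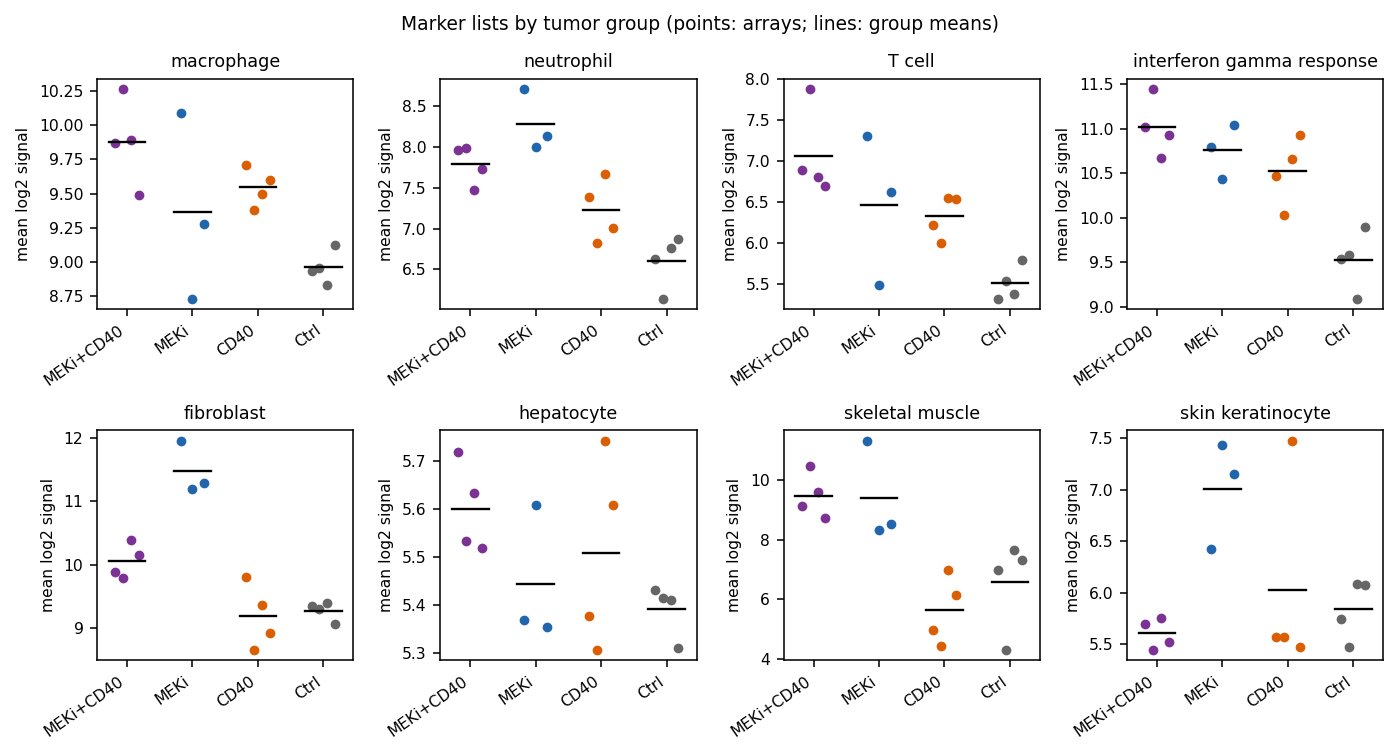
Mean log2 signal (y axis) of 8 marker lists in the 4 tumor groups (x axis), 1 point per array with group means as lines. The skeletal muscle list separates the MEKi+CD40 arrays, 8.72 to 10.49, from the Ctrl arrays, 4.29 to 7.65, and the hepatocyte list lies between 5.31 and 5.74 in every array.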

How the data were processed

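RNA from 15 whole tumors was hybridized to Affymetrix mouse arrays after labelling with a 3′ IVT kit. The authors deposited log2 values for each probe set, made with RMA (background correction, quantile normalization, summarization); the software version is not given in the sources used here. RMA puts all arrays on 1 scale, so a shift of most genes would not be seen. Scanner files were not used here. Of 45101 probe sets, 64 controls were left out. Of the rest, 34945 carried 1 symbol in the platform annotation, 932 several and 9160 none.

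Groups came from the sample labels. As in the study's methods, 2 groups at a time were fitted with limma 3.58.1 in R 4.3.3 (lmFit and eBayes, two-sided). Adjusted p-values follow Benjamini and Hochberg across 45037 probe sets, and 0.05 was the threshold. The interaction used all 15 arrays, and the comparisons share arrays. The number of arrays limits the precision. The script was tested on simulated data.

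The 8 genes, the wider list and the markers were chosen with earlier results of these data known. C4b was meant to enter the classical pair and was left out because its probe set is shared. The genes named were the 8 genes, wider list genes that passed in 2 or more of the 3 comparisons with Ctrl (up to 2 for each role, by mean absolute log2 fold change), and the 3 nearest genes of each measured gene. Alternatives were other fits and priors, array weights, further normalization, filters, probe set choices, a threshold of 0.01, a replicate block, the animal number series, muscle and skin marker levels, and the omission of single arrays. Same-numbered arrays were checked for pairing, and the main fits used none.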

Additional observations from a re-analysis of the deposited data

Results flagged for a closer look

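The effect of CD40 Ab on Masp1 differed with and without MEKi by -1.93 on the log2 scale (limma interaction, adjusted p = 0.0150). Without MEKi the change was -0.63 ± 0.20 (CD40 against Ctrl, adjusted p = 0.294), with arrays of 5.49, 5.41, 6.43 and 5.73 in CD40 and 6.27, 6.34, 6.28 and 6.67 in Ctrl tumors. With probe sets that can match several transcripts left out, the interaction was -0.45 (adjusted p = 0.110), and with the animal number series as a covariate -1.28 (adjusted p = 0.280).

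In MEKi+CD40 tumors, replicate 3 stood apart for Fcna, at 7.55 where the other 3 arrays lay between 6.43 and 6.55, and for C4bp, at 4.18 where the others lay between 4.40 and 4.44. Among the complement genes named in the text and Clu and Cr1l of the wider list (the rest of that list was not tested), these were the 2 groups out of 66 groups of 4 arrays in which 1 array stood past the limit of Dixon's test, which chance passes in about 1 in 20 groups. None of the groups of the 6 complement genes or of C4a/C4b did.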

How the results depend on the processing

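The 6 calls in MEKi+CD40 against Ctrl tumors held in every alternative except the 0.01 threshold, where Cfp was lost (adjusted p = 0.0107), and the muscle and skin covariates, which left 2 of the 6 genes and 0 of the 40 other complement genes. For MEKi against Ctrl (4 genes), 2 were left with the animal number series as a covariate, 0 within the series from 10000 (1 Ctrl array, no gene of the array passed) and 1 with the muscle and skin covariates; the other complement genes called (6) became 10 with all 15 arrays in 1 fit and 0 within that series. For CD40 against Ctrl (1 gene), the count was 0 with all 15 arrays in 1 fit, the mean over probe sets, the 0.01 threshold, the series as a covariate or within either series, and 2 with array weights or the muscle and skin covariates; the other complement genes called (4) became 0 under the same settings, apart from the mean over probe sets, the weights and the muscle and skin covariates. For MEKi+CD40 against MEKi (2 genes) the count was 1 with array weights, the series or the muscle and skin covariates, and 0 at 0.01. For MEKi+CD40 against CD40 (1 gene) it was 2 with all 15 arrays or within the series under 10000, 3 with the series as a covariate and 0 with the muscle and skin covariates (Cfi at 2.21, adjusted p = 0.0510), and for MEKi against CD40 (1 gene) 0 within the series from 10000. The classical minus alternative difference in MEKi+CD40 tumors was 0.57 with the C4a/C4b probe set added, a setting chosen after seeing the data, as were all alternatives for the wider list. Adding C3 was not run.

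Leaving out each array in turn gave 6 in MEKi+CD40 against Ctrl, 4 to 5 in MEKi against Ctrl, 0 to 4 in CD40 against Ctrl, 0 to 3 in MEKi+CD40 against MEKi, 1 to 2 in MEKi+CD40 against CD40, 1 in MEKi against CD40 and 0 for the interaction. For the other complement genes it gave 9 to 11, 4 to 9 and 0 to 5 in MEKi+CD40, MEKi and CD40 against Ctrl. The lowest CD40 counts came without Ctrl replicate 1, 2 or 3 or CD40 replicate 4. The share of all genes called is not given for each of these omissions. The classical minus alternative difference ran between 0.15 and 0.35, 0.35 and 0.72, and -0.11 and 0.12.

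With the replicate number as a block, 0 of the 6 genes were called in MEKi+CD40 against MEKi (0.104% of all genes were higher and 0.533% lower). In MEKi against CD40, 2 were called (Cfb joined Cfp), where 4.57% of all genes were higher and 2.31% lower. The other counts of the 6 genes were within 1.5 times. Same-numbered arrays correlated between -0.28 and 0.21 in their deviations, and 6 of 15 arrays were nearest to their own number. With 15 arrays this check cannot decide whether same-numbered samples share more than a number.

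Signs changed only in values that did not pass the test. In MEKi+CD40 against MEKi, C1ra was -0.14 and Cfb -0.07 without MEKi replicate 2, and Cfb -0.11 without MEKi+CD40 replicate 2; over all single omissions C1ra ran between -0.14 and 0.435 and Cfb between -0.11 and 0.14. In MEKi+CD40 against CD40, C1ra was -0.10 and C2 -0.16 with the muscle and skin covariates. Cfp was 0.0450 with array weights, 0.0938 with the mean over probe sets, 0.07 without CD40 replicate 1, 0.03 without MEKi+CD40 replicate 1 and 0.15 without MEKi+CD40 replicate 4, the highest of its single omissions, of which -0.12 was the lowest. In MEKi against CD40, C1ra was -0.18 with the muscle and skin covariates. C2 was -0.18 with array weights, -0.0025 with median centring, -0.15 with the series as a covariate, -0.17 within the series from 10000, -0.24 with the muscle and skin covariates, -0.18 without CD40 replicate 2 and -0.27 without MEKi replicate 1, the lowest of its single omissions, of which 0.175 was the highest. In the interaction, C1ra was 0.21 and C2 0.0669 with the series as a covariate, and Cfp -0.0650 with the muscle and skin covariates. Apart from counts that fall because fewer arrays enter the fit or the threshold is stricter, the cause of these changes was not tested.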
